A study of Mus musculus with 11 samples.

Results

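The regions described here are stretches of open chromatin that had a peak in each of 6 control libraries and in none of 5 knockout libraries of fetal mouse lung epithelium. They were chosen by the measured peaks themselves. Each library's peak list was ranked by its −log10 p, shortened to the 72935 strongest rows and restricted to chromosomes 1 to 19, and overlapping intervals of all 11 lists were merged. This gave 82678 merged regions, and 2162 of them (2.61%) met the rule. The reverse pattern, a peak in every knockout and no control, held for 2933 regions (3.55%). Because presence in the 2 groups selected the regions, their difference between genotypes is a description, carries no test and supports nothing further.

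ATAC-seq maps open chromatin with a transposase that cuts accessible DNA and inserts sequencing adapters there. All libraries were made from lungs of E17.5 mouse fetuses, from cells captured with magnetic beads that bind EpCAM, an adhesion molecule on the surface of epithelia. The knockout group, labelled Prdm3/16KO, lost floxed alleles of Prdm3 (gene symbol Mecom) and Prdm16 through ShhCre, a Cre recombinase expressed from the Shh gene, which is active in the early lung epithelium. Sires were Prdm3fl/flPrdm16fl/wtShhCre+ and dams Prdm3fl/flPrdm16fl/fl, so in that cross every fetus carried 2 floxed copies of Prdm3, whatever its group. Beyond the word Control, the genotype of the controls is not given in the sources used here, nor is whether each library came from its own animal, so spread between libraries may be technical in part. Bulk libraries cannot tell fewer cells with an open region from less open chromatin per cell.

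PRDM3 and PRDM16 are zinc finger proteins of the PR domain family that bind DNA and act on histone methylation and transcription in many developing tissues. Open chromatin away from gene starts often marks enhancers, short DNA elements that bind transcription factors and act on genes that can lie far away, while open chromatin at gene starts marks promoters. Late in gestation the distal lung epithelium separates into alveolar type 1 cells, which are flat and serve gas exchange, and type 2 cells, which make surfactant, and NKX2-1 is the homeobox factor that both lineages share.

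The members at gene starts are few, so their DNA is shown first as the most directly annotated part of the set. Of 31396 RefSeq promoter windows (build GRCm38.p6, which is mm10) on those of chromosomes 1 to 19 that were analysed for promoters, all but one, running from 250 bases before to 50 bases after a start site, 60 (0.191%) lay in a member, against 38.7% in a region with a peak in all 11 libraries. They belonged to 57 genes, 33 of them protein-coding, and sat in 56 members. The windows below are the 4 of protein-coding genes with the highest mean control score, followed by those of Tek and Adgrf5, 2 genes chosen after their values were seen. Tek encodes the angiopoietin receptor of endothelial cells and Adgrf5 a receptor that restrains surfactant release in type 2 cells. Cavin4, a caveola protein of muscle, is at chr4:48663264-48663563, plus strand. Atp2b2, a calcium pump of the plasma membrane, is at chr6:113934632-113934931, minus strand. Chia1, an acidic chitinase of lung and stomach, is at chr3:106113132-106113431, plus strand. Ugt2a3, a glucuronosyltransferase, is at chr5:87337146-87337445, minus strand. Tek is at chr4:94739039-94739338, plus strand, and Adgrf5 at chr17:43360181-43360480, plus strand. Each runs 5′ to 3′ along the gene, and capitals mark matches to the motifs listed after them.
Cavin4: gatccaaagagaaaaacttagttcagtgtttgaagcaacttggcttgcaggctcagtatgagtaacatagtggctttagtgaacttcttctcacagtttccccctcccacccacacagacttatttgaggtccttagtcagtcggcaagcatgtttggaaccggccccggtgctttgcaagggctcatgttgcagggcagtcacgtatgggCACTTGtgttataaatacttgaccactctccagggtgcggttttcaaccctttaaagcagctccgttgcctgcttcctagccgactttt
Atp2b2: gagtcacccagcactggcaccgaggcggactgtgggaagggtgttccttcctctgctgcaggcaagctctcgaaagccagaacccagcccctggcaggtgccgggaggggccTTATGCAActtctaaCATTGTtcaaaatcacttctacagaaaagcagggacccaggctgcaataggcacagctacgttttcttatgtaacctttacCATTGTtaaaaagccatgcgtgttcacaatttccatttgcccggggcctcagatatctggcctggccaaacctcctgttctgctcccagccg
Chia1: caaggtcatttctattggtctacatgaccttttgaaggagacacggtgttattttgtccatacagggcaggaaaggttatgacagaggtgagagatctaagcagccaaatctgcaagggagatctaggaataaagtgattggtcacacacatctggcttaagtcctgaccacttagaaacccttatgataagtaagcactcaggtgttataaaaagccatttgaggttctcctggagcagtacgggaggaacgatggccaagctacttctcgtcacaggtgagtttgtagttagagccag
Ugt2a3: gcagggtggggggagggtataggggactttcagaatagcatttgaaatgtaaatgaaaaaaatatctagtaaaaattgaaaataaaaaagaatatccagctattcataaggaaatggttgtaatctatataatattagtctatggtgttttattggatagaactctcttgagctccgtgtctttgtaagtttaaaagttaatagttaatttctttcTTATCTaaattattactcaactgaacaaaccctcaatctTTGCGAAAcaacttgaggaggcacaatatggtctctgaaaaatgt
Tek: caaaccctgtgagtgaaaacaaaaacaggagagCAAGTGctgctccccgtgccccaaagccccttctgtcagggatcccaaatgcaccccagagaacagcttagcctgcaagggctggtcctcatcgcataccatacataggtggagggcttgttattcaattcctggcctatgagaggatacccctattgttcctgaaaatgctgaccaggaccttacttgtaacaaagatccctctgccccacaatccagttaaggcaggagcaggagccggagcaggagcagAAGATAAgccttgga
Adgrf5: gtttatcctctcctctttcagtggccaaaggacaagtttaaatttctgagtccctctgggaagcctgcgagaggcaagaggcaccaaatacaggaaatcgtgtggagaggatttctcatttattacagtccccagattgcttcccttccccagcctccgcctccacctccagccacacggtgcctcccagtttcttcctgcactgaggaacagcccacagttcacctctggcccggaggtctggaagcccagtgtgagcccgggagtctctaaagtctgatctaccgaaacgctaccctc

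The motif letters searched, on both strands, were CAAGTG for NKX2 factors, TGTTTAC for FOXA, CCGGAAG for the ETS family, TGANTCA for AP-1, CATTCC for TEAD factors, TGCCAA for one side of the NFI palindrome, AGATAA for the GATA family, TTGCNNAA for C/EBP factors, AACNNGTT for GRHL factors, ACAATG for SOX factors and AAGATAA for EVI1, the older name of PRDM3. The EVI1 letters contain the GATA letters, so a match to the former counts for both. Cavin4 held 1 NKX2 match, Atp2b2 1 C/EBP and 2 SOX matches, and Ugt2a3 1 GATA and 1 C/EBP match. The Tek window held 1 NKX2 match and 1 stretch that matched both EVI1 and GATA. Chia1 and Adgrf5 held none of these letters. Over the 60 windows, 25% held the NFI letters, against 14.1% of all 31396 windows and 10.2% of the 12159 windows in regions shared by all libraries. C/EBP letters were in 12 of the 60, 10.9% of all and 7.56% of the shared windows, and SOX letters also in 12 of the 60, 12.2% of all and 6.16% of the shared windows. The ETS letters went the other way, at 3.33% of the 60, 9.0% of all and 18.6% of the shared windows. NKX2 letters were in 15% of the 60 and 13.5% of all, and EVI1 letters in 3.33% and 3.43%. In the 46 windows in regions of every knockout and no control, NFI letters were at 26.1% and ETS letters at 2.17%, near the shares in the members. SOX letters were at 15.2% there and C/EBP letters at 4.35%. GATA, AP-1 and TEAD letters were more frequent in the 46 than in the 60, at 26.1%, 17.4% and 28.3% against 10%, 8.33% and 16.7%. A match is a string of letters in a window and no evidence of binding, and 60 windows, some of them overlapping, are few. Some windows reach beyond the member, so their letters can lie outside the open region.

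Peak strength was expressed as a rank score within each library. The strongest row used scores 1, the weakest close to 0, and a region without a peak scores 0. At the Cavin4 promoter the 6 control scores ran from 0.647 to 0.822 with a median of 0.775, and at the Atp2b2 promoter from 0.598 to 0.752 with a median of 0.690. The Chia1 and Ugt2a3 promoters scored 0.505 to 0.677 (median 0.623) and 0.375 to 0.753 (median 0.596). Tek scored 0.347 to 0.626 (median 0.545), and Adgrf5 was the weakest of the 6 shown, at 0.235 to 0.360 (median 0.322). In all 5 knockout libraries the members at these promoters were without a peak. Other protein-coding genes with a promoter window in a member, named after their values were seen, included Sult1a1, a sulfotransferase with a mean control score of 0.541, Col7a1, the collagen of anchoring fibrils, and Slc5a1, the intestinal sodium-glucose transporter, at 0.404. Of the 60 windows 4 reached a mean score of 0.6.

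As a set the regions were of middling strength in the controls. Their median score was 0.402, 0.406, 0.483, 0.451, 0.452 and 0.412 in control replicates 1 to 6, or 0.434 ± 0.0329 (mean ± SD, n = 6 libraries). Regions with a peak in all 11 libraries, here called shared, had medians from 0.772 to 0.775 in the same 6 libraries. Every control therefore ranked the typical member below the typical shared region. All regions with a peak in a library had medians from 0.541 to 0.625, so the members also lay below those. In the authors' own units the members' median fold enrichment over background was 10.5 to 12.2 in the controls, against 13.9 to 14.9 for shared regions, and their median −log10 p was 43.0 to 80.0 against 98.0 to 197. The latter 2 values depend on a sequencing depth that is unknown here and are compared within a library only.

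**Figure D1:**
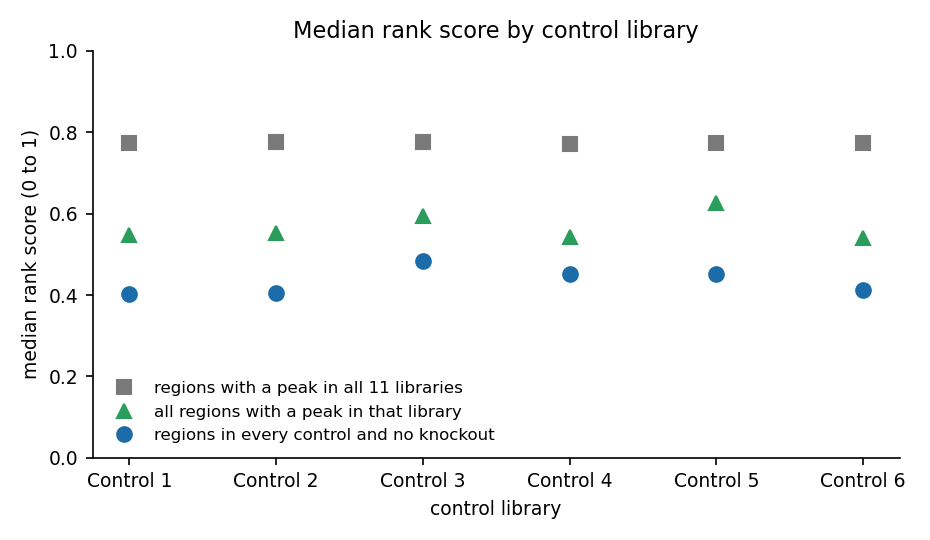
Median rank score (vertical axis, 0 to 1) in each of the 6 control libraries (horizontal axis) for regions with a peak in all 11 libraries (squares), all regions with a peak in that library (triangles) and regions in every control and no knockout (circles). The circles lie between 0.402 and 0.483 and below the other symbols in each library.

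Among the members, mean control scores ran from 0.128 to 0.935 with a median of 0.423 and quartiles of 0.327 and 0.522. A mean score of at least 0.6 was reached by 265, at least 0.7 by 74 and at least 0.8 by 11. The spread between controls was wider than elsewhere, with a median SD of 0.101 for a member against 0.0443 for a shared region. Scores near the top of a rank scale have little room to vary, and the shared regions lie nearer the top. The lowest of the 6 control scores fell in replicate 6 for 25.9% of members and in replicate 1 for 24.1%, and in replicate 3 for 7.40%. Replicate 3 held the highest score for 30.1% of members. Replicates 1, 2 and 6 thus held the weakest peak of a member more often than replicates 3, 4 and 5.

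The regions were compact and well aligned between libraries. Their median width was 691 bp, against 940 bp for shared regions. A shared region joins intervals of all 11 lists and a member those of 6, so merging alone can widen the former. The 6 control summits, the positions of highest signal, lay within a median of 34 bp of each other, and within 100 bp at 1906 members (88.2%), close to the 87.4% of shared regions. A single summit in every control was found at 70.0% of members and 44.4% of shared regions. The regions in every knockout and no control were alike in form, with a median width of 687 bp and a single summit at 63.3%, and they scored higher in their own group, with a median mean score of 0.538.

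The edges of the rule were examined on both sides. Among regions with a peak in every control, 1209 had a peak in exactly 1 knockout, and the median score of those knockout peaks was 0.176. Those regions had a median control score of 0.450, little above that of the members just inside the rule. On the other side, 1693 regions had a peak in 5 controls and no knockout, with a median score of 0.288 in the controls that had one. In 131 of these the missing control had a weaker peak that was removed when its list was shortened. Just inside the rule, 129 members (5.97%) had at least 1 control score under 0.05.

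Shortening the knockout lists removed few intervals, because most of the weak rows were second summits of an interval already kept. From 0 to 269 intervals were lost per knockout list and from 20 to 8550 per control list. In the full lists 3 members had a peak in a knockout library, all 3 in replicate 1. By the same count 426 (14.5%) of the regions in every knockout and no control had a weak peak in some control list. The lists have a floor of their own. The 1st percentile of −log10 p over intervals was 17.47 to 21.8 in controls and 16.5 to 17.7 in knockouts, and the score column went no lower than 540 in any list. How the authors set this floor is not given in the sources used here, so no peak means none above it, not closed chromatin. On the scale of the IDR tool, which rates peaks by their agreement between libraries, 540 stands for a rate of 0.05. Whether the lists were filtered in that way was not tested, and if they were, a peak's place in 1 list would also depend on another library.

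Regions were also chosen by presence in 10 libraries at a time and then looked up in the library left out. That library's peaks took no part in the choice, but region bounds and list length had been set with all 11 lists. Of the regions chosen without control replicates 1, 2, 3, 4, 5 and 6, the library left out had a peak at 91.7%, 90.5%, 87.5%, 93.6%, 76.6% and 93.4%. The same libraries had a peak at 92.7% to 98.8% of all regions present in the other 5 controls, whatever the knockouts showed, and at 56.1% to 66.8% of all merged regions of the other 10. Of the regions chosen without knockout replicates 1 to 5, the library left out had a peak at 12.3%, 10.8%, 8.81%, 12.6% and 5.38%, against 3.24% to 7.84% of all regions absent from the other 4 knockouts and 53.5% to 62.7% of all regions. Set against regions with the same pattern in the rest of the group, the chosen regions were present less often in each left-out control and more often in each left-out knockout. The 2162 members take part in all 6 control shares, so these are not independent of each other. The lowest control share, in replicate 5, had an exact 95% binomial interval of 74.95% to 78.1%, which covers counting error only, and that library had the fewest regions of the controls (46587). Where a left-out knockout did have a peak, its median score was 0.150 to 0.275.

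**Figure D2:**
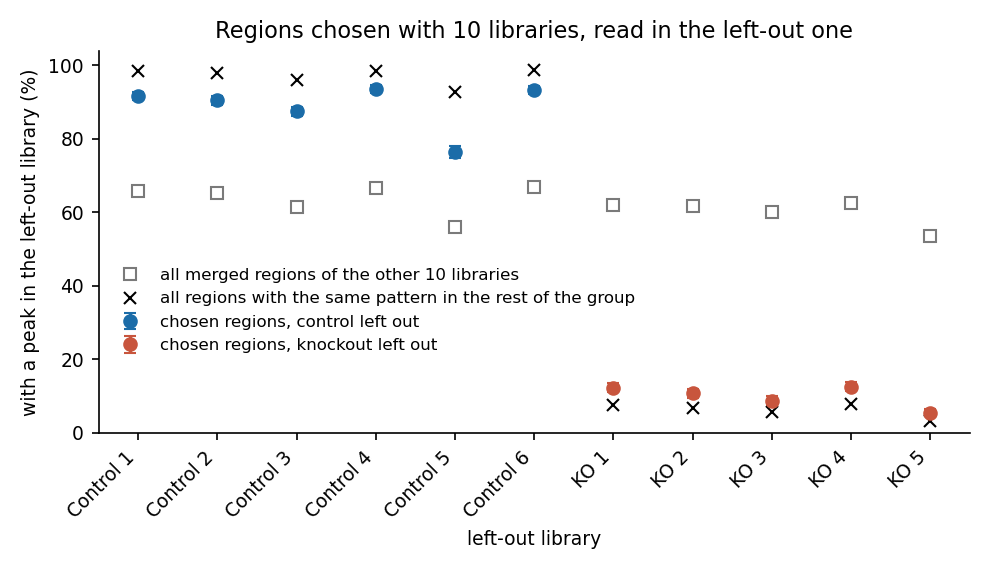
Percentage of regions with a peak in the left-out library (vertical axis) for each of the 11 libraries (horizontal axis, KO for knockout). Filled circles are regions chosen with the other 10 libraries, with exact 95% binomial intervals, open squares are all merged regions of those 10, and crosses are all regions present in every other control or, for knockouts, absent from every other knockout. Circles lie between squares and crosses for the 6 controls (76.6% to 93.6%) and for the 5 knockouts (5.38% to 12.6%).

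The members lay mostly away from gene starts. Protein-coding genes of the RefSeq table were used, and each region was assigned to the nearest gene. Where several genes overlapped it or were equally near, the shortest gene was taken. Inside a gene body, over 1 kb from both ends, were 1174 members (54.3%), and 102 (4.72%) were within 1 kb of a gene end. Another 624 (28.9%) lay between genes at up to 100 kb, and 262 (12.1%) were farther than 100 kb from any gene. Shared regions were at a gene end in 36.8% and in a gene body in 34.9%, and all merged regions in 17.8% and 44.2%. The regions in every knockout and no control resembled the members, with 2.80% at a gene end and 46.9% in gene bodies, but 586 of them (19.98%) were over 100 kb from genes. The median distance to a RefSeq start site, for the 2067 members outside chromosome 18, whose start sites and promoters were not analysed here, was 28518 bp, against 9226 bp for shared regions. Along genes of known strand, members were spread nearly evenly, with 25.4%, 27.8%, 25.4% and 21.4% of 932 in 4 equal stretches of the gene body from its 5′ end. All merged regions were spread in nearly the same way, at 26.4%, 26.8%, 24.9% and 21.9%. Introns and exons could not be told apart, since the table gives gene bounds only.

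Since gene ends hold the strongest peaks, location was also read within bands of equal control score. Of all 37780 regions with a peak in every control, 5.72% were members, and the share fell from 30.3% at mean scores of 0.1 to 0.2 to 18.9% at 0.3 to 0.4, 7.28% at 0.5 to 0.6 and 1.08% at 0.7 to 0.8. A weak region is more likely to miss a list by its strength alone, so this slope is in part built into a rule on presence. The share at gene ends was the lowest of the 4 location classes, or level with it at 0, in each of the 9 bands. At scores of 0.3 to 0.4 it was 5.58% (22 of 394) at gene ends, 21.7% (307 of 1412) inside gene bodies, 19.02% between genes and 23.6% beyond 100 kb. At 0.6 to 0.7 it was 0.454% (6 of 1323) at gene ends and 5.08% (116 of 2282) inside gene bodies. The lower share at gene ends was thus present among regions of like strength. Above 0.9 only 1 of the members remained, the one inside Lmbrd2.

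**Figure D3:**
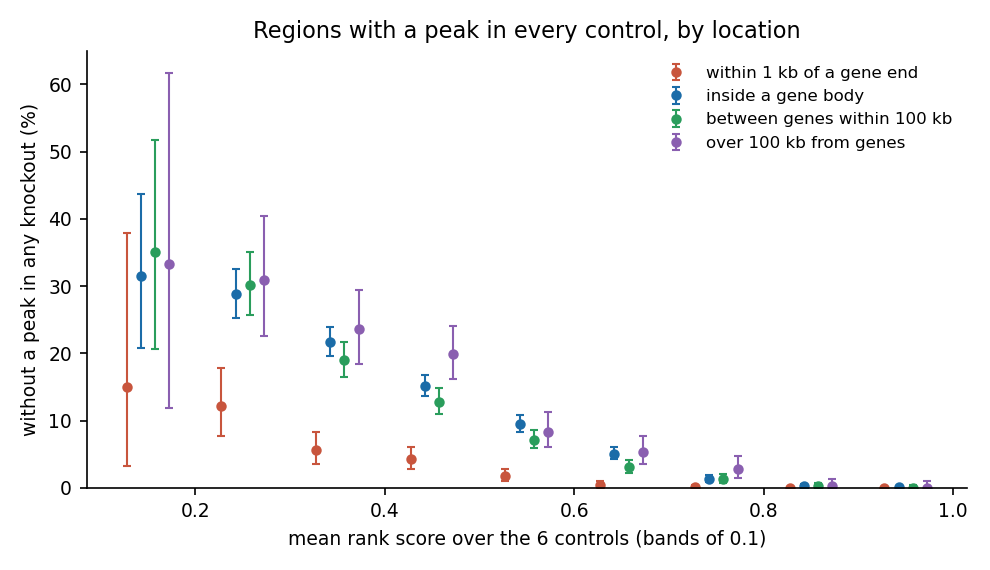
Percentage of regions with a peak in every control that had none in any knockout (vertical axis) by mean rank score over the 6 controls (horizontal axis, bands of 0.1, symbols set side by side within a band) and by location class (colours), with exact 95% binomial intervals that cover counting error only. The share falls with score in each class, and gene ends (red) lie lowest in each band, level with 2 other classes at 0 above 0.9, for example 5.58% against 21.7% inside gene bodies at 0.3 to 0.4.

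The 10 members with the highest mean control scores had means from 0.801 to 0.935, and 7 of them lay inside a gene body. The first was in Lmbrd2, which encodes a membrane protein (chr15:9183965-9184456), with control scores of 0.902 to 0.958 and a median of 0.939. Arhgef28, a guanine nucleotide exchange factor, followed with 0.822 to 0.889 (median 0.870). The third was 248 kb from the nearest gene, Ythdf3, a reader of methylated RNA, at chr3:16465182-16465849, with 0.780 to 0.899 (median 0.876). Rap1gds1, a regulator of small GTPases, had 0.775 to 0.862 (median 0.847). All 6 controls were thus close together at these 4, while no knockout list held a peak there.

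Inside Elavl2, which encodes a neuronal RNA-binding protein, the member at chr4:91266097-91266546 scored 0.787 to 0.898 (median 0.821) in the controls. A member 46.7 kb from Prg4, the gene of the joint lubricant proteoglycan 4, scored 0.759 to 0.913 (median 0.807). One 7.15 kb from Tmem132d, a transmembrane protein gene, scored 0.740 to 0.895 (median 0.823). The other 3 lay inside the genes of MEF2C, a transcription factor of muscle, vessels and neurons, of REC114, a protein of meiotic recombination, and of TRAF6, a ubiquitin ligase of innate immune signalling. Their control scores were 0.747 to 0.855 (median 0.802) in Mef2c, 0.713 to 0.856 (median 0.819) in Rec114 and 0.703 to 0.879 (median 0.807) in Traf6. The nearest knockout peak was 6029 to 142126 bp away from these 10 regions. None of the 10 is at a gene named in the lung lists used below.

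Peaks near a member but not on it were counted by distance. Some knockout peak lay within 500 bp of 99 members (4.58%), within 1 kb of 205 (9.48%), within 5 kb of 36.8% and within 10 kb of 58.6%. Around shared regions another region with a knockout peak lay within the same distances of 7.30%, 12.2%, 37.9% and 62.5%. Knockout peaks were thus somewhat less often near members than near shared regions at each of these distances.

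Shared regions close to a member had nearly the same strength in the 2 genotypes. The 413 within 5 kb of a member had mean scores of 0.711 to 0.726 in the controls and 0.717 to 0.733 in the knockouts, with means of 0.721 and 0.726, and the groups overlap. The 877 shared regions within 10 kb of a member had mean scores of 0.727 to 0.741 (median 0.737) over the 6 controls and 0.721 to 0.729 (median 0.727) over the 5 knockouts, and the groups overlap. Within 50 kb, 4084 shared regions had 0.732 to 0.744 in controls and 0.722 to 0.730 in knockouts, with means of 0.739 and 0.726, so the groups did not overlap there but differed little. All shared regions had 0.736 to 0.742 and 0.731 to 0.739.

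Members were spread over the genome with little grouping. The median gap from a member to the next was 229237 bp. Another member lay within 50 kb of 360 members (16.7%), while a member lay within 50 kb of 14.1% of all other regions, which is the density set by where open chromatin lies. The regions in every knockout and no control were closer to their own kind, with 22.0% within 50 kb against 15.8% of other regions, and 14.4% of members had such a region within 50 kb. By chromosome, members were 4.15% (chromosome 12) to 6.94% (chromosome 10) of the regions in every control. Chains of members with gaps of at most 50 kb numbered 149 of 2 members, 16 of 3, 2 of 4 and 1 of 6, and 1802 members stood alone.

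The chain of 6 lay inside Thrb, the gene of thyroid hormone receptor beta, at chr14:17685459-17757266. All 6 regions of this stretch with a peak in every control were members, and it held no shared region. The 6 had mean control scores from 0.327 to 0.577. The strongest, at chr14:17685459-17686090, scored 0.441 to 0.686 in the controls (median 0.587), and the weakest, at chr14:17729086-17729618, 0.209 to 0.449 (median 0.319). A further region of the stretch had a peak in 5 controls and no knockout, and 2 others had a peak in 2 and 1 knockouts and no control. One of these, present in 2 knockouts, was 545 bp from one member and 807 bp from the next. Just past the end of the chain, 453 bp from its last member, lay a region with a peak in 3 knockouts and no control. Its mean knockout score was 0.289.

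Thrb also led the count of members per gene. It had 8 members among 24 regions, all inside the gene body, and they were 8 of its 14 regions with a peak in every control. The other 2 members scored 0.265 to 0.586 (chr14:17852055-17852809) and 0.341 to 0.658 (chr14:17988968-17989652). Of the 6 further regions in every control, 5 had a peak in 1 to 4 knockouts. The sixth, at chr14:17917876-17918945, had a peak in all 11 libraries, averaging 0.773 over the controls and 0.816 over the knockouts. No Thrb region had a peak in every knockout and no control, though 4 had a peak in some knockouts and no control. Of the 8 members, 6 thus lay together in the chain towards the 5′ end of the gene, and the strongest region of the gene was not among them.

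**Figure D4:**
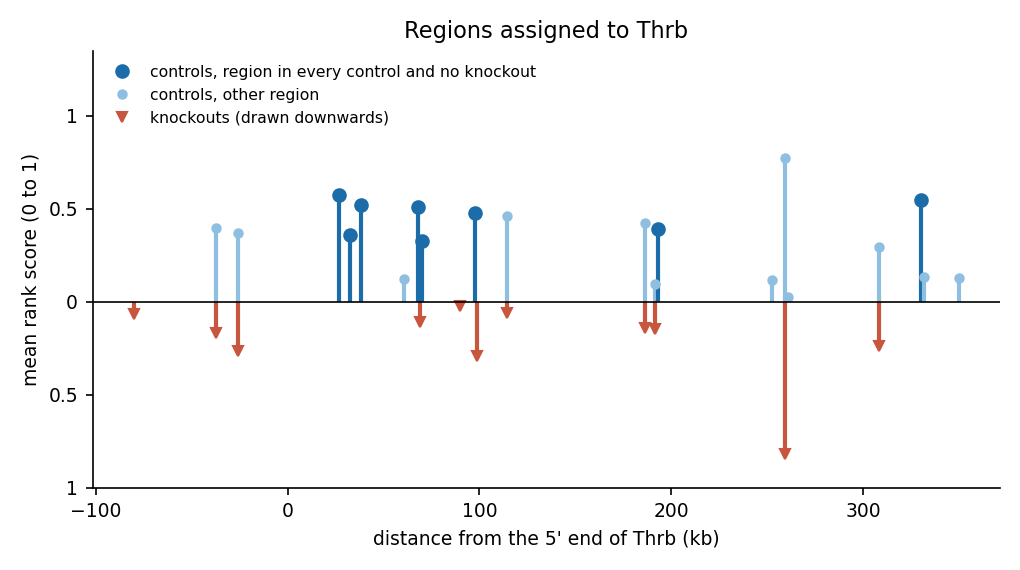
The 24 regions assigned to Thrb by distance from the 5′ end of the gene in kb (horizontal axis), with the mean rank score over 6 controls drawn upwards and over 5 knockouts drawn downwards (vertical axis, 0 to 1). Dark blue marks the 8 regions in every control and no knockout, with mean scores of 0.327 to 0.577, and the tallest bars in both directions (0.773 and 0.816) belong to the region present in all 11 libraries.

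Of the other chains, both with 4 members are described here, and of the 16 with 3 members the 2 of shortest span. In Magi2, which encodes a scaffold protein of cell junctions and synapses, 4 members spanned chr5:20610554-20643035, with mean scores of 0.576, 0.602, 0.306 and 0.522 from left to right. Between the second and the third lay a region with a peak in every control and 4 knockouts, with means of 0.490 and 0.331. In Sntb1, which encodes the membrane adaptor beta-1-syntrophin, 4 members spanned chr15:55778432-55871540, with means of 0.595, 0.307, 0.300 and 0.442. Here a region of the reverse kind, in every knockout and no control, lay among them at chr15:55846909-55847843, with a mean knockout score of 0.449. Losses and gains were thus interleaved within the gene.

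A chain of 3 on chromosome 10 (chr10:17540276-17570184) had no gene within 100 kb, and the nearest was Cited2, a transcriptional co-regulator gene, 153 to 182 kb away. Its members scored 0.624, 0.382 and 0.318 on average. Close to the third, at 1117 bp, a region with a peak in all 11 libraries averaged 0.326 over the controls and 0.711 over the knockouts. Neighbouring regions in this chain thus had opposite patterns. In Slc4a4, the gene of a sodium bicarbonate cotransporter, 3 members spanned chr5:89050912-89083929 with means of 0.195, 0.583 and 0.583, and these were the only regions of the stretch.

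With a gene within 100 kb, 1900 members were assigned to 1579 genes. Of these genes 1332 had 1 member, 197 had 2 and 50 had 3 or more. The genes were long, with a median of 71.7 kb against 21.0 kb for genes with a region but no member, and held a median of 8 regions against 2. More regions give more chances of a member, so the count per gene follows gene length in part. Of the 1579 genes, 393 (24.9%) also had a region in every knockout and no control, which is 21.7% of the 1815 genes with such a region. Among the genes with a region but no member the share was 9.81%, and those genes were shorter and had fewer regions.

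After Thrb, 6 genes had 5 members each. Tmem132d had 5 of 14 regions, with mean control scores of 0.314 to 0.825, and they were 5 of its 7 regions in every control. Slc4a4 had 5 of 31 (0.195 to 0.583) and Plcb4, a phospholipase C gene, 5 of 33 (0.248 to 0.463). Ptprg, a receptor tyrosine phosphatase gene, had 5 of 48 (0.415 to 0.568), Magi2 5 of 51 (0.306 to 0.618) and Sox5, the gene of a SOX family transcription factor, 5 of 57 (0.348 to 0.556). Another 7 genes had 4 members, and the 3 of them with the highest share of members among their regions were Ranbp17, of the nuclear export receptor family, with 4 of 12 (0.250 to 0.750), Tmtc2, whose product adds mannose to cadherins, with 4 of 23 (0.244 to 0.426), and Sntb1 with 4 of 24 (0.300 to 0.595). The other 4 were Arhgap15 with 4 of 26, Dnm3 with 4 of 36, Ccser1 with 4 of 40 and Pde4d with 4 of 56. Together the first 10 genes held 50 members, 45 of them inside the gene body, among 317 regions (15.8%, against 2.61% of all merged regions). They were picked for their member counts and, among ties, for this share, so it is no test. The same genes had 65 shared regions and 11 in every knockout and no control, so none of them lost all of its open regions.

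**Figure D5:**
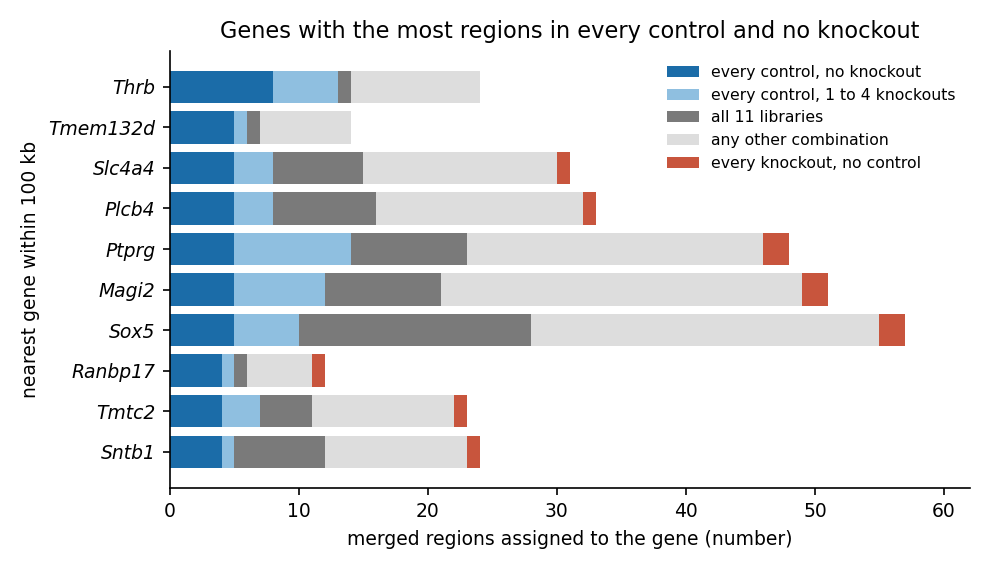
Number of merged regions (horizontal axis) assigned to each of 10 genes (vertical axis), the 7 with 5 or more members and, of 7 with 4, the 3 with the highest share of members among their regions, split by the libraries in which they had a peak. Dark blue marks regions in every control and no knockout, 8 at Thrb and 4 or 5 at the others, and each gene also had at least 1 region in all 11 libraries (dark grey).

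Genes whose regions in every control were all members were counted only where they had at least 2 such regions. In 6 genes with at least 2 regions in every control, each such region was a member, and all 6 had 2 members. They were Hmgxb3, Tgtp1, an interferon-induced GTPase gene, Zc3h11a, an RNA-binding protein gene, Asb3, Ubtd1 and Pwp1. Their strongest members had mean control scores from 0.464 (Pwp1) to 0.752 (Hmgxb3). Hmgxb3 and Zc3h11a had no further region, while the others also had regions that were not in every control. Assignment to the nearest gene does not show which gene a region acts on.

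Gene lists for lung cell types and pathways were then read for members. All 375 genes of the 21 lists were found in the gene table, 1 of them by an older symbol. Of them 66 had a member, 80 members in all. Over the whole series 1579 of 16077 genes with a region had one. Genes with more regions have more chances of a member, so these counts of genes follow the number of regions in part. Counts are given as a share of the regions with a peak in every control, for which the share over the whole series was 5.72%. The median score of these 80 was 0.437, near the 0.423 of all members. Some knockout peak lay within 500 bp of 5 of the 80, and of 99 of all 2162 members. The 5 were assigned to Hopx, Ehf, Tead1, Jag1 and Foxp1.

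Alveolar type 2 genes had 4 members among 66 such regions (6.06%), 1 each at Napsa, Il33, Hc and Slc34a2. At Napsa, the gene of the protease that trims surfactant protein B, the member at chr7:44572129-44572752 overlapped the gene at its end and scored 0.330 to 0.529 in controls (median 0.467). At Hc, which encodes complement C5, the member was 0.631 kb from the gene end and scored 0.239 to 0.467 (median 0.335). Neither gene had a peak within 1 kb of its ends in any knockout. Over the whole list of 23 type 2 genes, 17 had a gene-end peak in every control and 14 in every knockout, and 4 had none in any library. Apart from Napsa and Hc, the gene lost from the count was Lamp3, a lysosomal membrane protein gene, with a gene-end peak in 4 of 5 knockouts. Sftpc, the gene of surfactant protein C, had one in 4 of 6 controls and 4 of 5 knockouts. Il33, an alarmin gene, had its member 45.4 kb away at 0.196 to 0.631 (median 0.361), and also had 3 regions in every knockout and no control. Alveolar type 1 genes had 1 member among 110 such regions (0.909%), 40.5 kb from Hopx, a homeodomain protein gene, at 0.484 to 0.629 (median 0.561), and a knockout peak lay 192 bp from it. Surfactant lipid genes had 1 of 99 (1.01%), 86.3 kb from the cholesterol exporter gene Abca1.

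Genes of lung epithelial transcription factors had 20 members among 238 such regions (8.40%), at 14 of 34 genes. These 34 genes held 528 regions in all, so the number of genes with a member follows their regions in part. Nfia, of the nuclear factor I family, had 3 members in its gene body with mean scores of 0.624, 0.496 and 0.449, and the first scored 0.469 to 0.722 over the controls. Foxp1, a forkhead repressor gene, had 3 in its gene body, with means of 0.577, 0.313 and 0.251. Tead1, whose product partners with YAP, had 2, with means of 0.370 and 0.294, the second 232 bp from a knockout peak. Both Nfia and Foxp1 are long and had 62 and 48 regions, of which 29 and 20 were in every control. The list also counts members at Foxa2, Irx2, Klf5, Ehf, Elf5 and Nfib among others, and no member was assigned to Nkx2-1, whose gene end had a peak in all 11 libraries.

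Genes of the Hedgehog pathway had 5 members among 60 such regions (8.33%), with a median score of 0.673. A count of 5 is small, so this share is not set apart from the 5.72% of the whole series. The same genes also had 5 regions in every knockout and no control, among them 1 at Ptch1 and 2 at Gli3. The epithelium makes the ligand Sonic hedgehog and the surrounding mesenchyme receives it. Ptch1, the gene of the receptor, had a member 0.701 kb from its gene end (chr13:63506978-63507627) with control scores of 0.695 to 0.810 (median 0.754). Hhip, whose product binds the ligand at the cell surface, had one 19.8 kb away at 0.648 to 0.818 (median 0.726). Cdon, a co-receptor gene, had 2 in its gene body, at 0.553 to 0.740 and 0.251 to 0.430. Gli3, the gene of a transcription factor of the pathway, had 1 in its gene body at 0.482 to 0.804. Each of the 3 receptor-side genes Ptch1, Hhip and Cdon kept other regions in every control, since they had 7, 7 and 6 in all.

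The shares of 4 other pathways were nearer to that of the whole series, and that of FGF genes was below it. Genes of BMP and TGF-beta signalling had 11 members of 171 (6.43%), led by Ltbp1, a binding protein of latent TGF-beta, with 3 (means 0.492, 0.467 and 0.319), the ligand gene Bmp2 with 2 (0.478 and 0.344) and Bmp4, another ligand, with 1 (0.548). Wnt genes had 8 of 126 (6.35%), among them Znrf3, a ubiquitin ligase that removes Wnt receptors (0.662), the receptor gene Fzd5 (0.638) and the secreted antagonist Sfrp2 (0.616). The members assigned to Fzd5 and Sfrp2 lay 15.4 and 75.8 kb from those genes. Notch genes had 5 of 107 (4.67%), 2 of them at the receptor gene Notch1 (0.535 and 0.355). Another lay 74.4 kb from the ligand gene Jag1 (0.413), and 1 was in Rbpj, the DNA-binding partner of Notch (0.370). Hippo genes had 5 of 87 (5.75%), with Stk3, a core kinase gene, at 0.689 and Vgll4, a TEAD cofactor gene, at 0.203, beside the 2 at Tead1. FGF genes had 2 of 77 (2.60%), 76.9 kb from the ligand gene Fgf9 (0.565) and 93.6 kb from the receptor gene Fgfr2 (0.263).

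Genes of junctions and keratins had 5 of 83 (6.02%). Ocln, the gene of the tight junction protein occludin, had 1 at 0.563 to 0.788 (median 0.741), and Dsp, of desmosomes, had 1 (0.589). Genes of lung fluid transport had 3 of 55 (5.45%), in the chloride channel gene Ano1 (0.632 to 0.741, median 0.673) and 2 at Atp1b1, a sodium pump subunit gene (0.436 and 0.327). The PRDM family had 4 of 71 (5.63%), 2 at Prdm1 (0.483 and 0.297), 1 in Prdm11 (0.369) and 1 in Mecom itself (0.347 to 0.649 in the controls). None was assigned to Prdm16. Among its 54 regions Mecom also had 5 in every knockout and no control, and the whole family had 6 of that kind.

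Markers of other epithelial cells, which carry EpCAM too, and of cells that the beads could carry over were counted in the same way. Airway secretory, neuroendocrine, gut and immune genes had no member among 5, 19, 12 and 7 such regions. Multiciliated genes had 2 of 33, in Rfx3 (0.564) and Dnah11 (0.488), and basal cell genes 1 of 12, in Dapl1 (0.339). Endothelial genes had 2 of 22 (9.09%), the Tek promoter shown above (0.519) and 1 in Erg (0.328), an endothelial transcription factor gene. Mesenchymal genes had 3 of 21 (14.3%), a small count. They lay 43.9 kb from Wt1 (0.461), 68.4 kb from Twist2 (0.439) and 36.6 kb from Dcn (0.377). As to the label of the cells, Epcam, Cdh1, Krt8 and Nkx2-1 had a peak within 1 kb of a gene end in all 11 libraries, and Pecam1 and Ptprc, which define endothelial and immune cells, in none. Other endothelial genes differed from Pecam1, since Kdr, Flt1, Cldn5 and Erg had such a peak in all 11 libraries, while 7 of the 13 had none in any library. Other immune genes differed from Ptprc, since Spi1 and Fcer1g had such a peak in all 11 libraries and Cd68 in 5 controls and no knockout. Of the defining mesenchymal genes Col1a1 had such a peak in all 11 libraries. Over the whole lists, 5 of 13 endothelial, 5 of 16 mesenchymal and 2 of 11 immune genes had a gene-end peak in every control, and 4, 3 and 2 in every knockout. The part of other cell types in these members was not tested.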

How the data were processed

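Peak lists of 11 ATAC-seq libraries were used, 6 Control and 5 Prdm3/16KO. The submitters' processing notes list MACS2, deepTools, DiffBind 3 and the mm10 build, with no roles. For the aligner and the peak-calling options, nothing is given in the sources used here. The deposited fold enrichment is a ratio over background, the deposited −log10 p and −log10 q are per summit, and the deposited score is a whole number of unstated meaning. All were made by the authors within each library, and units were read from the layout and values. Read depth is unknown. Deposited lists held 79525 to 112297 rows in controls and 72935 to 85704 in knockouts.

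Lists were shortened to the 72935 rows of highest −log10 p, restricted to chromosomes 1 to 19 and merged where intervals overlapped by at least 1 bp. Genes and promoters came from RefSeq tables of GRCm38.p6. Promoter windows and start sites of chromosome 18 were not used here. The motif search planned for the members themselves was run on promoter windows, since no genome was used. No test was run. Named were the 10 members of highest mean score, the 10 genes with most members (ties by share of the gene's regions), the 5 chains with most (ties by shorter span, a choice made after seeing the data), and up to 3 genes per list, and other named genes were chosen after their values were seen. One gene that this rule names is not reported here. The members and lists were chosen with earlier results of these data known. The region code was tested on simulated data. Alternatives covered list length, ranking, merging, chromosomes, distances and left-out libraries. Tools were pandas 2.3.3, numpy 2.4.6, scipy 1.17.1 and matplotlib 3.10.9 in Python 3.11.15.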

Additional observations from a re-analysis of the deposited data

Results flagged for a closer look

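Of 19 groups of values over the libraries, 2 held a library far from the rest, and chance flags about 1 group in 20. Of the regions chosen without control replicate 5, that library had a peak at 76.6%, against 87.5% to 93.6% for the other 5 controls. Knockout replicate 5 had a peak at 44413 merged regions, against 50111 to 52259 for the other 4 knockouts. It is also the library whose deposited list is the shortest and sets the length used for all. Without both libraries, an alternative chosen after seeing the data, 2975 regions met the rule in place of 2162. With fewer libraries the rule is easier to meet.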

How the results depend on the processing

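The count of 2162 regions and the count of 1579 genes stayed within 1.5 times under every alternative run, as did the 2933 regions of the reverse kind. Members numbered 2076 to 2300 over the settings that kept all libraries, and 2285 to 2826 with each library left out in turn. The median control score of 0.432 (the median over the 6 controls) moved beyond the spread between controls, to 0.542 with the lists as deposited, 0.354 with lists of 50000 peaks, 0.340 with each interval counted once, 0.578 ranked by fold enrichment, 0.506 with a −log10 q of at least 5 and 0.377 without both libraries numbered 5. It was 0.377 to 0.440 with each library left out. The score is a rank within the list used, so a longer list raises it. Ranking by fold enrichment kept the list length and changed the order itself. Shared regions and all regions were not scored under that ranking.

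The share in gene bodies moved from 54.3% to 50.7%, and that at gene ends from 4.72% to 10.8%, when gene ends were drawn at 3 kb. Gene ends held 5.96% with lists of 50000 peaks. The share with another member within 50 kb moved from 16.7% to 14.9% with each interval counted once, to 23.2% without both libraries numbered 5, and to 17.6% to 22.5% with each library left out. Within 20 kb it was 7.49%. No paired analysis was possible because no result comes from a test. Presence in a list limits all of this, since depth is unknown and a weak region can miss a list.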
